A study of Homo sapiens with 24 samples.

Results

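The enzymes that make, salvage and phosphorylate nucleotides were followed in 24 RNA-seq libraries of MCF-10A cells, an immortalised human breast epithelial line. The set holds 34 genes, chosen by symbol for their place in purine, pyrimidine and deoxynucleotide synthesis, out of 60668 rows in the deposited gene table. All 34 were found, and all 34 passed the filter on low counts, so no member is missing from the tests. Purine synthesis builds a ring on activated ribose (PRPP) up to IMP, which is then converted to either AMP or GMP. Pyrimidine synthesis makes UMP first and CTP from it. Ribonucleotide reductase and thymidylate synthase turn these products into the building blocks of DNA, and salvage enzymes recover free bases and nucleosides. Several of these genes, CAD among them, are textbook targets of the MYC transcription factor, and the deoxynucleotide genes are known for being transcribed around S phase.

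Both lines were grown as 3D cultures on Matrigel, each after 0, 8, 24 or 48 h of 1 µM 4-hydroxytamoxifen (4-OHT), with 3 libraries in each of the 8 groups. One line is parental MCF-10A, labelled wild-type. The other carries MYC-ER, MYC joined to the ligand-binding region of an oestrogen receptor and silent until 4-OHT binds it. Treatment was timed backwards so that every culture was collected on day 5, and the 0 h groups therefore received no 4-OHT. Each time is a separate set of cultures. Longer treatment also began in younger cultures, so hours of 4-OHT and culture age at its start cannot be told apart. The promoter that drives MYC-ER, whether the line is a single clone, and the species of the receptor part are not given in the sources used here. The labels number the libraries 1 to 3 and mention wells seeded in triplicate, but nothing says that they are separate experiments, so the p-values measure only the spread between these libraries, which may be technical. In bulk RNA, fewer cells that express a gene and less RNA per cell cannot be told apart.

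Library totals ran from 136860029 to 182438505 counts. Levels are given as CPM, a gene's counts relative to the scaled total of its library, and differences as log2 changes from edgeR, where 1 is a doubling. A gene was called where edgeR's quasi-likelihood test, adjusted over all 22158 genes tested by Benjamini-Hochberg, gave a p under 0.05. Where the libraries of groups are said not to overlap, the share of all genes without overlap was not counted. Gene spans are those of GENCODE 29 on GRCh38. Basal epithelial markers were abundant in every library, with KRT5 at 1032265 counts or more, and the 7 summed to 10252 to 16464 CPM in MYC-ER and 18025 to 29317 CPM in parental libraries. Of other cell types, CD3E (T cells), CDH5 (endothelium) and PGR (hormone-sensing luminal cells) had 0 counts in all 24 libraries, but other genes of those lists were detected: CD68 at 728 to 3536 counts, PECAM1 at 8 to 335, FOXA1 at 24 to 570 and GATA3 at 1193 to 3370. The leukocyte list summed to 4.20 to 23.6 CPM, the endothelial list to 0.058 to 2.32 CPM and the luminal list to 11.2 to 19.7 CPM. The 6 fibroblast markers summed to 370 to 377 CPM in the MYC-ER 0 h libraries and to at most 133 CPM elsewhere. COL1A1 (7464 to 37997 counts) and DCN (3339 to 27719) were detected in every library and made up most of these sums. PDGFRB had 75 to 274 counts, LUM 0 to 51, COL1A2 0 to 9 and COL3A1 0 to 2. The part of other cells in the results was not tested. The parental 0 h libraries differed most among themselves, with a chi-square per degree of freedom of 173 to 285 between them against at most 68.8 within any other group. Replicate 2 was off the other two in several members (APRT 319.8 CPM against 446 and 488), and replicate 1 had the lowest mitochondrial share of all libraries (3.86%).

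The promoters of the members are shown first, because E-boxes (CACGTG, the sequence MYC binds with its partner MAX) and E2F motifs (bound by the S phase factors of that name) are the 2 motifs usually linked to these genes. The windows run from 250 bases before to 50 after each RefSeq transcription start (GRCh38.p14), both strands were searched, and 31 of the 34 members were matched. An E-box stood in at least 1 window of 8 of the 31 members (25.8%), against 2396 of 27305 genes overall (8.77%). PPAT and PAICS count separately here for 1 shared E-box. The genes overall were not limited to those expressed in these libraries, whereas all members were expressed, and the part of this in the shares was not tested. By window the shares were 16.7% of 48 and 7.26% of 35116. Among members at least 2-fold higher at 8 h in MYC-ER cells, PPAT, PAICS, ATIC, DHODH, SLC29A1, NME1 and DCTPP1 held an E-box. GART, PFAS, IMPDH1, ADSS1, CAD, UMPS, CTPS1, HPRT1, UCK2, TK1, RRM2 and DTYMK, which rose as far, held none in these windows. Sequence beyond the windows was not searched, so an E-box just outside them would be missed. ADSL, IMPDH2 and RRM2B had no window to search. Below, 30 bases around each E-box are printed 5′ to 3′ on the gene's strand, with the motif in capitals, to show that the core is shared while its flanks differ.
PPAT (shared with PAICS): aacggagatttcCACGTGcagcaaatacag
ATIC, upstream: gggccggcgggcCACGTGataagcccggaa
ATIC, downstream: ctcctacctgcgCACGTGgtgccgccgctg
DHODH: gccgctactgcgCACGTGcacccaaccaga
DCK: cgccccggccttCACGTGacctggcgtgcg
SLC29A1: cagtgCACGTGctcccaggtctcagggagg
NME1: caagtgctgcgaacCACGTGggtcccgggc
DCTPP1: ggagggttcctcCACGTGgtcgggaagcgg

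These pieces lie at chr4:56435780-56435809 (minus strand), chr2:215312001-215312030 and chr2:215312076-215312105 (plus strand), chr16:72008573-72008602 (plus), chr4:70993521-70993550 (plus), chr6:44219365-44219394 (plus), chr17:51153579-51153608 (plus) and chr16:30429792-30429821 (minus), in that order. PPAT and PAICS, which carry out the first and a middle step of purine ring synthesis, stand head to head on chromosome 4, and the E-box 182 bases before the PPAT start is the same one that lies 41 bases after the PAICS start. In GENCODE 29 this E-box falls in untranslated exon sequence of PAICS, those of ATIC, DCK and NME1 fall in untranslated exon sequence of the same gene, that of DHODH straddles the first base of its annotated gene, that of DCTPP1 falls in an exon of the opposite-strand gene ZNF771, and that of SLC29A1 falls in no annotated gene. The E2F motif was searched as TTTCCCGC, TTTCGCGC, TTTGCCGC and TTTGGCGC, none of which overlaps the E-box. It stood in 5 of the 31 members (16.1%), PRPS2, GART, DCK, TYMS and DUT, against 3.99% of all genes. By window the shares were 10.4% and 3.31%. The matches of DUT, TYMS and DCK are printed because these 3 genes were at least 2-fold higher at 24 h than at 8 h in MYC-ER cells, a choice made on their values. The other 5 members with such a rise (TK1, RRM2, RRM1, DTYMK and ADSS1) have no match in these windows, and GART, which has one, was highest at 8 h.
DUT (both matches): gctgGCGGGAAAtttcggtTTTGGCGCgct
TYMS: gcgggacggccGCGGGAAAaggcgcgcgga
DCK: gctgcctccgcGCGCCAAAgtcaaaccccg
They lie at chr15:48332151-48332180, chr18:657603-657632 and chr4:70993659-70993688, all on the plus strand and all in untranslated exon sequence of the same gene in GENCODE 29. A match is a run of letters and not a bound site, and nothing in these RNA data shows which factor was present. 

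**Figure D1:**
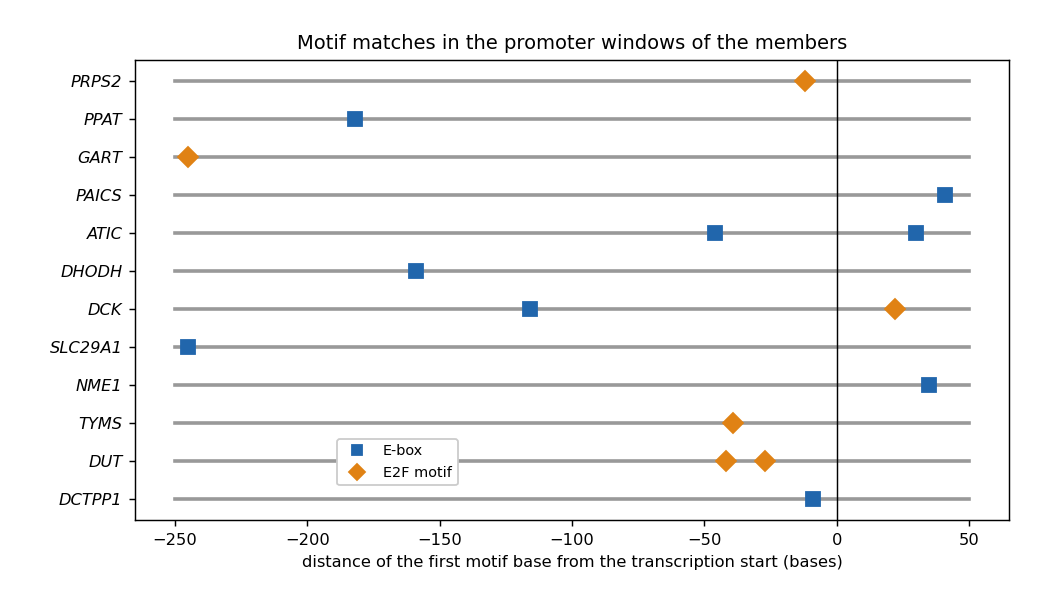
Positions of E-boxes (blue squares) and E2F motifs (orange diamonds) in the promoter windows of the 12 members that hold one; the x axis is the distance of the motif's first base from the RefSeq transcription start in bases, and each grey bar is 1 window. PPAT and PAICS share 1 E-box, ATIC has 2, and DCK holds both motifs.

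Over the time course, the MYC-ER line moved through a wide range and the parental line did not. The ratio of the highest to the lowest group mean had a median of 2.76 over the 34 members in MYC-ER, from 1.17 to 218, and of 1.29 in the parental line, where it never exceeded 1.73. In MYC-ER cells, 15 members had their highest mean at 8 h, 18 at 24 h and 1 (RRM2B) at 48 h, and none at 0 h. Purine and pyrimidine ring genes made up most of the first set, with 5 of 6 and 4 of 5 highest at 8 h, while 5 of the 7 deoxynucleotide genes were highest at 24 h. These counts only rank group means. From 8 to 24 h the change did not pass the test for 4 of the 6 purine and 2 of the 5 pyrimidine genes. With library totals as the scaling, PAICS, CAD and DHODH were called higher at 24 h than at 8 h. Ranges and peak counts over all genes are not given. In the parental line, 11, 13, 8 and 2 members were highest at 0, 8, 24 and 48 h. Without parental 0 h replicate 2 these counts were 14, 11, 7 and 2, and the parental range had a median of 1.36 and a maximum of 1.87. Without replicate 3 the counts were 8, 16, 8 and 2. The heat map shows the members in all 24 libraries.

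**Figure D2:**
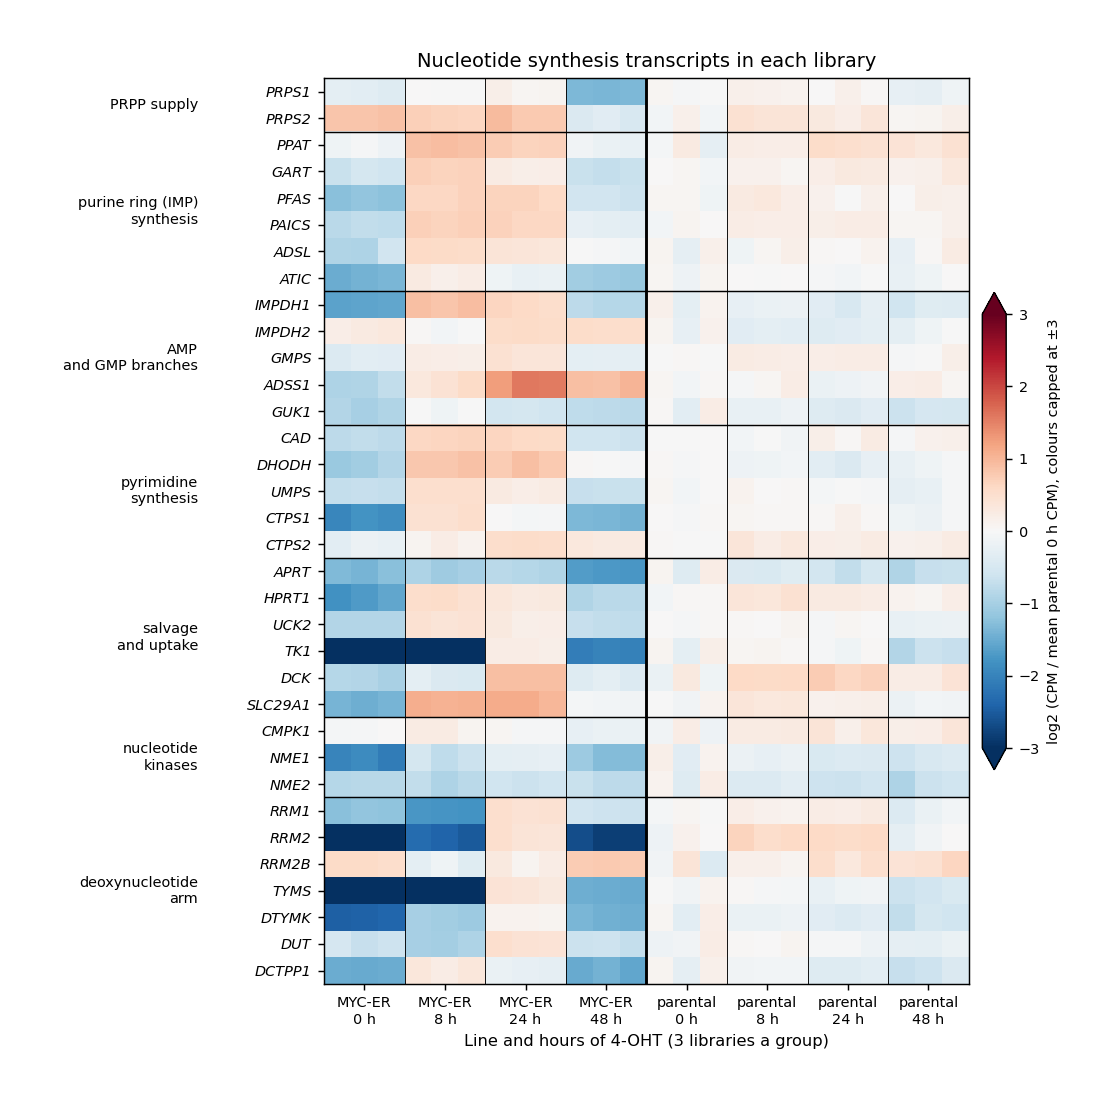
Level of each member in each library as log2 of its CPM over the mean of the 3 parental 0 h libraries (colours capped at ±3), rows grouped by role and columns by line and hours of 4-OHT. The MYC-ER columns start mostly blue. The purine and pyrimidine ring rows turn pale red at 8 h, and most deoxynucleotide rows go from blue to pale colours by 24 h. At 48 h most rows are blue again, while the parental columns stay pale.

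Before any 4-OHT, most members stood lower in the MYC-ER line than in the parental one. At 0 h 29 members were lower and 3 higher (PRPS2, IMPDH2 and RRM2B), with a median log2 difference of -0.89, and 15 were at least 2-fold lower. Among all genes tested, 64.3% differed between the lines at this time, 31.6% higher and 32.7% lower in MYC-ER (13.5% at least 2-fold higher and 15% at least 2-fold lower), with a median of 0.00. The widest gaps were in DNA precursor genes. TK1, the thymidine salvage kinase (chr17:78174075-78187233), stood at 0.261, 0.301 and 0.216 CPM in the MYC-ER libraries, which are 45, 53 and 37 counts, and at 50.9, 38.96 and 53.9 CPM in the parental ones. RRM2, the small subunit of ribonucleotide reductase (chr2:10120698-10131419), stood at 0.696, 0.868 and 1.03 CPM against 126, 154 and 143. For neither gene did the lines overlap, and the log2 differences were -7.52 (SE 0.134) and -7.35 (SE 0.125), with edgeR adjusted p-values of 2.97e-21 and 1.36e-21. TYMS, which makes dTMP, was lower by a log2 difference of -3.15 (SE 0.08703), and DTYMK, the next kinase, of -2.42 (SE 0.0883). All 16 genes of an S phase list (PCNA, MCM and origin genes) were also lower in MYC-ER at 0 h, with a median of -2.57, and their part in the members' difference was not tested. Mitochondrial genes took 9.24% to 9.71% of the counts in the MYC-ER 0 h libraries and 3.86% to 7.78% in all others. These libraries are also the baseline of every MYC-ER change from 0 h given below, and the part of this share in the results was not tested.

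Within 8 h of 4-OHT, 27 of the 34 members had risen in MYC-ER cells and 5 had fallen (PRPS2, IMPDH2, RRM1, RRM2B and DUT), with a median log2 change of 1.30. Of those that rose, 20 were at least 2-fold higher, and none of the 5 fell that far. Over all genes 67.6% passed the test (32.2% higher, 35.4% lower; 15.1% at least 2-fold higher, 19.6% at least 2-fold lower) and the median was -0.10. At 24 h against 0 h, 30 members were higher, 21 of them at least 2-fold, and 1 lower (RRM2B), with a median of 1.25, where 61.6% of all genes were called (30.4% higher, 31.2% lower; 15.2% at least 2-fold higher, 12.2% at least 2-fold lower) with a median of -0.02. Leaving out any single library or changing scaling, filter, tool or design kept 29 of the 32 calls at 8 h and 30 of the 31 at 24 h. The calls that were lost under some setting were PRPS2, APRT and CMPK1 at 8 h and RRM2B at 24 h.

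The PRPP synthetases changed little in the first day. PRPS1 and PRPS2 make the activated ribose on which the purine ring is built and to which the finished pyrimidine ring is joined. PRPS1 (chrX:107628424-107651026) stood at 40.5, 39.5 and 37.6 CPM at 0 h, 49.5, 49.2 and 48.7 at 8 h and 55.3, 51.8 and 52.5 at 24 h in MYC-ER cells, log2 changes of 0.33 (SE 0.0455) and 0.44 (SE 0.0455). PRPS2 (chrX:12791355-12824222) stood at 72.8, 72.2 and 74.4 CPM at 0 h and 66.5, 64.6 and 63.4 at 8 h, a log2 change of -0.17 (SE 0.06197), which lost its call with DESeq2 or its size factors (both -0.14), without MYC-ER 0 h replicate 3 (-0.16) and without MYC-ER 8 h replicate 3 (-0.16). At 24 h PRPS2 was 78.2, 70.6 and 70.6 CPM, a change from 0 h of 0.00 that did not pass the test. By 48 h both genes had fallen below their starting level, to 19.4, 19.1 and 19.4 CPM for PRPS1 and 30.2, 32.2 and 29.4 for PRPS2, with changes from 0 h of -1.02 (SE 0.0462) and -1.26 (SE 0.0631). They were the only 2 members at least 2-fold lower at 48 h than at 0 h, and the 48 h and 0 h libraries did not overlap for either.

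All 6 genes of the purine ring pathway rose at least 2-fold at 8 h in MYC-ER cells, with log2 changes between 1.00 and 1.86 (median 1.41). Over all genes 15.1% were called and at least 2-fold higher. PPAT (chr4:56393362-56435615), which commits PRPP to the pathway, went from 30.3, 32.4 and 30.1 CPM to 61.6, 63.5 and 61.1, a log2 change of 1.00 (SE 0.0822). PFAS (chr17:8247618-8270491), the synthase that adds a nitrogen to the growing ring, had the largest change, from 20.8, 21.8 and 20.9 CPM to 75.4, 75.8 and 78.9 (3.63-fold, log2 1.86, SE 0.0591, edgeR adjusted p = 4.66e-17). In both genes every 8 h library lay above every 0 h library. PAICS (chr4:56435741-56464579), a bifunctional enzyme of the middle steps, rose from 181, 189 and 185 CPM to 513, 504 and 514. GART (chr21:33503931-33543491), a single protein with several activities of the pathway, rose from 108, 119 and 113 to 283, 274 and 279 CPM, and ATIC (chr2:215311817-215349773), which closes the ring, from 72.8, 76.6 and 78.9 to 245, 225 and 238. ADSL (chr22:40346500-40390463), which acts in the ring pathway and again on the way to AMP, rose from 36.2, 35.9 and 45.3 CPM to 102, 100.4 and 99.2. None of these 6 overlapped its 0 h values at 8 h, and the share of all genes without such overlap was not counted.

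At 8 h all 6 ring genes also stood above the parental line, by log2 differences of 0.21 to 0.69, although 5 of the 6 had been below it at 0 h. Over all genes 23.1% were above the parental line at 8 h and 32.7% below it at 0 h. From 8 to 24 h the pathway was held or eased: GART and ATIC fell, with log2 changes of -0.49 and -0.40, and the changes of the other 4 did not pass the test. PFAS was still at 78.3, 77.9 and 74.8 CPM at 24 h. By 48 h all 6 had fallen from their 24 h level (log2 -1.25 to -0.41), as had 25.5% of all genes. PPAT and GART were then at 30.7, 29.1 and 28.5 and 108, 104 and 107 CPM, and their differences from 0 h, -0.07 and -0.09, did not pass the test, while PFAS, PAICS, ADSL and ATIC were still above 0 h by 0.33 to 0.75. PAICS and PPAT have pseudogenes named after them (7 and 2 in GENCODE 29), GART shares exon bases with SON on the other strand and ADSL with AL022238.4 on its own, so how reads were split between these was not tested.

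Past IMP the branches differed by gene. IMPDH1 (chr7:128392277-128410252), one of the 2 dehydrogenases at the entry to GMP, went from 59.4, 60.1 and 61.7 CPM at 0 h to 337, 319 and 343 at 8 h, 280.2, 274 and 262 at 24 h and 105, 99.6 and 100.1 at 48 h. It was a 5.51-fold rise at 8 h (log2 2.46, SE 0.0876), exceeded at that time by RRM2, TK1 and SLC29A1 alone among the members. IMPDH2 (chr3:49024325-49029408), the other dehydrogenase, fell slightly at 8 h, from 386, 405 and 417 to 343, 317 and 336 CPM (log2 -0.28, SE 0.0759), and was higher at 24 h, at 497, 497 and 492 (log2 0.30, SE 0.0759 from 0 h). GMPS (chr3:155870536-155944026), which finishes GMP, rose from 81.3, 86.7 and 84.6 CPM to 126, 124 and 122 at 8 h and 148, 138 and 138 at 24 h, log2 changes of 0.56 and 0.75. Of the 3 genes on the way to GMP, only IMPDH1 more than doubled. GUK1 (chr1:228139962-228148984), the guanylate kinase, rose at 8 h from 252, 234 and 248 CPM to 456, 425 and 457 (log2 0.87) and was down to 319, 323 and 304 at 24 h. ADSS1 (chr14:104724186-104747325), an adenylosuccinate synthetase on the AMP side best known from muscle, was still rising at 24 h: 10.5, 10.7 and 11.99 CPM at 0 h, 24.7, 26.96 and 29.8 at 8 h, 47.99, 60.1 and 58.5 at 24 h and 37.2, 36.5 and 40.6 at 48 h. ADSS1 had the largest excess over the parental line of all members at 24 h, a log2 difference of 1.63 (SE 0.0878), and was 1 of only 2 members, with IMPDH2, above it at 48 h. IMPDH1 has 7 pseudogenes named after it.

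The pyrimidine pathway genes rose together at 8 h: all 5 were higher in MYC-ER cells, 4 of them at least 2-fold, with a median of 1.41. Over all genes 32.2% were higher and 15.1% at least 2-fold higher. CAD (chr2:27217390-27243943), a single protein with the first enzyme activities of the pathway, went from 127, 131 and 128 CPM to 336, 343 and 346 (log2 1.41, SE 0.0552). DHODH (chr16:72008588-72027664), the mitochondrial dehydrogenase of the middle step, went from 5.504, 5.77 and 6.52 CPM to 20.9, 20.99 and 21.8, and UMPS (chr3:124730366-124749273), which finishes UMP, from 34.8, 35.5 and 35.1 to 81.3, 80.7 and 81.2. Each rose by 1.21 to 1.84 on the log2 scale with no overlap between groups. CTPS1 (chr1:40979335-41012565), which turns UTP into CTP, had the largest rise of the pathway, from 30.5, 34.4 and 32.7 CPM to 163, 162 and 171 (5.09-fold, log2 2.35, SE 0.05001, edgeR adjusted p = 9.71e-20). Its paralogue CTPS2 (chrX:16588003-16712936) rose from 9.71, 10.6 and 10.3 CPM to 12.7, 14.1 and 13.1, a log2 change of 0.38.

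CTPS1 had already begun to fall at 24 h, to 119, 115 and 116 CPM, against 121, 131 and 122 in the parental line (log2 difference -0.10, not called), whereas CAD stood at 341, 332 and 324 and DHODH at 20.3, 22.3 and 20.4. DHODH was the pyrimidine gene furthest above the parental line, whose 24 h libraries were at 9.49, 8.83 and 10.03 CPM (log2 difference 1.15, SE 0.0673). At 48 h the 5 genes were lower than at 24 h, with log2 changes of -1.36 to -0.25, where 25.5% of all genes were lower. CAD was then at 145, 145 and 140.5 CPM, and its remaining rise over 0 h of 0.16 lost its call with no filter on low counts (0.15) and without MYC-ER 0 h replicate 1 or 3 or 48 h replicate 1 or 2 (0.14 to 0.15).

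Salvage and uptake genes were all higher at 8 h, 4 of the 6 at least 2-fold (median 1.75), beside 32.2% of all genes higher and 15.1% at least 2-fold. HPRT1 (chrX:134460153-134520513), which recovers hypoxanthine and guanine, went from 11.01, 11.9 and 13.1 CPM to 55.6, 56.3 and 53.1 (4.59-fold, log2 2.20, SE 0.0599). SLC29A1 (chr6:44219505-44234151), the equilibrative nucleoside transporter at the cell surface, went from 24.2, 23.2 and 24.4 CPM to 136, 131 and 134 at 8 h and 138, 138 and 127 at 24 h, a 5.62-fold rise at the later time. Both had no overlap between their 0 h and later libraries. UCK2 (chr1:165827531-165911618), the uridine-cytidine kinase, rose from 87.2, 86.5 and 86.2 CPM to 218, 209 and 215. APRT (chr16:88809339-88811944), the adenine counterpart of HPRT1, moved least, from 166, 159.9 and 177 CPM to 220.1, 198 and 211 (log2 0.32, SE 0.101), and this call was lost with upper-quartile scaling (log2 0.19). APRT remained below the parental line at all 4 times, by log2 differences of -1.32, -0.58, -0.26 and -0.96 at 0, 8, 24 and 48 h, although the 24 h difference lost its call without any 1 of the MYC-ER 24 h libraries or without parental 24 h replicate 1 or 3 (-0.28 to -0.22), under each other scaling (-0.24 to -0.13) and with no filter (-0.27). UCK2 shares exon bases with the opposite-strand genes TMCO1 and AL358115.1, and HPRT1 has 3 pseudogenes named after it.

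The deoxynucleoside kinases among the salvage genes took longer. TK1 went from 0.261, 0.301 and 0.216 CPM at 0 h to 2.55, 2.19 and 2.26 at 8 h, 56.3, 56.2 and 54.1 at 24 h and 11.4, 11.96 and 11.7 at 48 h. At 24 h it was 213-fold above 0 h (log2 7.74, SE 0.135) and stood above the parental libraries, at 46.5, 44.1 and 49.5 CPM (log2 difference 0.25). DCK (chr4:70992538-71030914), which phosphorylates deoxycytidine and carries both motifs printed above, stood at 8.29, 8.17 and 7.62 CPM at 0 h and 12.2, 11.1 and 10.97 at 8 h, then at 28.1, 27.9 and 27.9 at 24 h and 11.5, 12.2 and 11.2 at 48 h. Its log2 change was 0.51 (SE 0.0909) at 8 h and 1.80 (SE 0.0924) at 24 h. The 8 h change of DCK was not shown to differ from that of the parental line, 0.59 (SE 0.0897), the difference between them being -0.09 (SE 0.127, edgeR adjusted p = 0.601). At 24 h it was larger than in the parental line, by 1.11 (SE 0.127). DCK shares exon bases with MOB1B on the same strand.

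Of the 3 nucleotide kinases, NME1 rose most. NME1 and NME2 (chr17:51153536-51162428 and chr17:51165435-51171747) make nucleoside triphosphates from diphosphates and lie side by side. NME1 went from 43.1, 45.9 and 40.2 CPM at 0 h to 118, 101 and 110.1 at 8 h and 140.00, 142 and 144 at 24 h, log2 changes of 1.35 (SE 0.0983) and 1.72 (SE 0.0992). NME2 stood at 389, 391 and 390.4 CPM at 0 h, 421, 367 and 401 at 8 h and 459, 449 and 460.3 at 24 h, and its changes of 0.02 and 0.22 did not pass the test. A read-through gene, NME1-NME2, shares 638 exon bases with NME1 and 603 with NME2, so the values of both are uncertain. CMPK1 (chr1:47333797-47378839), which phosphorylates UMP and CMP, was at 131, 132 and 136 CPM at 0 h and 161, 162 and 145 at 8 h, a log2 change of 0.23 that lost its call with library totals (0.14) or the upper quartile (0.09) as the scaling and without MYC-ER 8 h replicate 1 (0.20) or 2 (0.20).

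Most of the deoxynucleotide arm was highest at 24 h, and its members did not start together. At 8 h, 3 of the 7 genes were higher (RRM2, DTYMK and DCTPP1), 3 were lower (RRM1, RRM2B and DUT) and TYMS did not pass the test. The median of the arm was -0.08. Over all genes 32.2% were higher and 35.4% lower at 8 h, with a median of -0.10. RRM1, the large subunit of ribonucleotide reductase (chr11:4094707-4138876), dipped from 65.3, 69.1 and 68.03 CPM to 46.3, 45.5 and 45.02 at 8 h and then stood at 221, 210.1 and 214 at 24 h. RRM2, its small subunit, went from 0.696, 0.868 and 1.03 CPM to 28.4, 26.8 and 24.7 at 8 h and 200.4, 184 and 181 at 24 h. The small subunit was 30.8-fold up at 8 h while the large one was down by a log2 change of -0.56 (SE 0.0578), and at 24 h both were up, by 7.77 (SE 0.127) and 1.67 (SE 0.0588). RRM2B, the alternative small subunit known for its control by p53, went the other way, from 74.4, 74.7 and 71.9 CPM at 0 h to 41.002, 45.8 and 38.995 at 8 h, 61.5, 53.1 and 58.7 at 24 h and 84.7, 87.1 and 85.02 at 48 h. The RRM2B fall at 8 h was -0.81 (SE 0.122) and held in every setting, and that at 24 h, -0.35, lost its call without MYC-ER 24 h replicate 2 (-0.29) and with library totals as the scaling (-0.24).

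TYMS (chr18:657604-673578), which makes dTMP from dUMP with a folate cofactor, stayed at 5.47, 4.43 and 5.96 CPM at 0 h and 5.23, 4.56 and 5.203 at 8 h, and reached 62.1, 60.4 and 57.4 at 24 h. Its 8 h change of -0.08 (SE 0.0849) did not pass the test (it did, at -0.22, with upper-quartile scaling and, at -0.19, without MYC-ER 0 h replicate 2), and the 24 h change was 3.50 (SE 0.0882). DUT (chr15:48331011-48343373), which breaks down dUTP and so supplies dUMP, fell from 43.1, 38.4 and 40.2 CPM to 30.6, 30.2 and 32.2 and then rose to 87.5, 83.1 and 81.6. Both were highest at 24 h, with no overlap between the 8 h and 24 h libraries. DTYMK (chr2:241675742-241686991), the kinase after TYMS, rose in steps, from 11.1, 11.2 and 11.6 CPM to 30.4, 29.5 and 28.4 and 64.7, 65.3 and 64.6. DCTPP1 (chr16:30423619-30430075), which removes dCTP and modified dCTP and carries an E-box, was the only gene of the arm highest at 8 h, 84.9, 78.7 and 84.3 CPM against 23.9, 23.6 and 23.8 at 0 h, and lower again at 24 h, 58.2, 56.1 and 55.9 (log2 -0.54, SE 0.0782 from 8 h). TYMS shares exon bases with the opposite-strand ENOSF1 and TYMSOS, DUT with AC023355.1, RRM1 with RRM1-AS1 and DCTPP1 with ZNF771, RRM2 with AC007240.1 on its own strand, and DUT, RRM2 and TYMS have 8, 3 and 2 pseudogenes named after them.

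The direct comparison of 24 h with 8 h put 15 members higher and 10 lower in MYC-ER, with a median of 0.06, 8 at least 2-fold higher and none at least 2-fold lower (55.5% of all genes were called, 28.4% higher and 27.1% lower, 14.5% and 6.82% at least 2-fold, with a median of 0.05). The 8 were TK1 (log2 4.57), TYMS (3.58), RRM2 (2.82), RRM1 (2.24), DUT (1.44), DCK (1.29), DTYMK (1.14) and ADSS1 (1.03), so that 7 of the 8 make or salvage DNA precursors. With library totals in place of TMM scaling the split was 22 higher and 5 lower, since that scaling moved the median of all genes from 0.05 to 0.26, and PAICS, CAD and DHODH then counted as higher. At 8 h the S phase list and the deoxynucleotide arm differed. Of the list's 16 genes 15 were higher than at 0 h (median 1.74). Of the arm's 7 genes 3 were higher and 3 lower (median -0.08). At 24 h all 16 of the list (median 3.54) and 6 of the arm (median 1.67) were higher than at 0 h. Over all genes 32.2% were higher at 8 h and 30.4% at 24 h. CDC45 went from 0.221 ± 0.0346 CPM (SD, n = 3) at 0 h to 5.63 ± 0.181 at 8 h and 42.3 ± 0.888 at 24 h. CDT1 went from 1.88 ± 0.2204 to 10.8 ± 0.166 and 73.5 ± 4.32. How much of the members' change goes with a changed share of cells in S phase was not tested. The plots of 8 members by time set the early and late genes side by side.

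**Figure D3:**
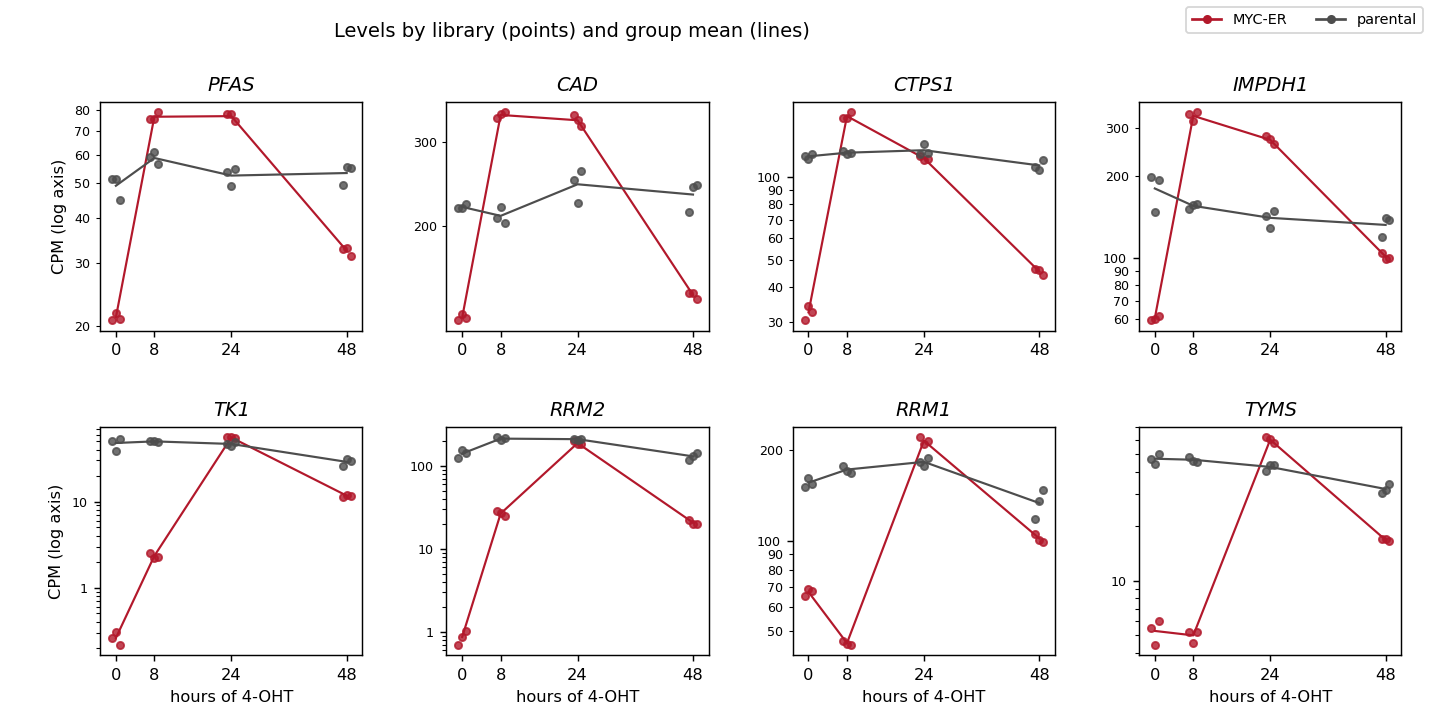
CPM (log axis) against hours of 4-OHT for 8 members; points are single libraries, lines join group means, red is MYC-ER and grey is parental. PFAS, CAD, CTPS1 and IMPDH1 (top) are high in MYC-ER by 8 h, TK1 and RRM2 rise at 8 h and again by 24 h, RRM1 is lower at 8 h than at 0 h, and TYMS rises only after 8 h.

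Set against the parental line at the same hour, the MYC-ER deficit at 0 h had turned for most members by 24 h. At 8 h 17 members were above the parental line and 13 below it (48.6% of all genes called, 23.1% above and 25.5% below, 4.43% and 10.6% at least 2-fold). IMPDH1 was the only member at least 2-fold above, and the 5 at least 2-fold below were TK1, RRM1, RRM2, TYMS and DUT. At 24 h 20 were above and 3 below (49.4% of all genes, 23.5% above and 25.8% below, 8.35% and 6.99% at least 2-fold; ATIC, APRT and CMPK1 were below, none of them 2-fold), and with library totals as the scaling 25 were above and 0 below. RRM2 at 24 h was 200.4, 184 and 181 CPM in MYC-ER and 213, 206 and 212 in parental cells, a difference of -0.16 that did not pass the test. TYMS stood above the parental line by then, at 62.1, 60.4 and 57.4 CPM against 40.2, 43.3 and 43.7 (log2 0.50, SE 0.0789). At 48 h the order had turned again, with 2 above and 26 below, 4 of them at least 2-fold (56.7% of all genes, 27.3% above and 29.4% below, 12.6% and 7.6% at least 2-fold; 6 above and 25 below with library totals or upper-quartile scaling).

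Between 24 and 48 h, 31 of the 34 members fell in MYC-ER, 16 of them at least 2-fold, with a median of -0.96. This compares with 25.5% of all genes lower and 28.2% higher (53.7% in all; 10.9% at least 2-fold higher, 7.22% at least 2-fold lower) and a median of 0.06. IMPDH2 and NME2 did not pass the test, and RRM2B rose, by 0.57 (SE 0.122). RRM2 had the largest fall, from 200.4, 184 and 181 CPM to 22.4, 19.8 and 19.9 (log2 -3.19, SE 0.0971), ahead of TK1 (-2.25) and TYMS (-1.84). All 16 S phase genes fell over the same interval, with a median of -2.25. Against 0 h, 21 members were still higher at 48 h and 3 lower (PRPS1, PRPS2 and APRT), where 44.1% of all genes were called (23.4% higher, 20.7% lower). The split was 27 and 3 with library totals as the scaling. It was 25 and 5 with only the compared groups in the fit, and 24 and 4 with the GC trend removed. In the main fit 6 members were at least 2-fold higher, against 10.5% of all genes (2.85% were at least 2-fold lower): TK1, RRM2, ADSS1, TYMS, SLC29A1 and DHODH.

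The parental line received the same 4-OHT without MYC-ER. No parental member changed 2-fold at any time, where 2.18%, 3.98% and 2.62% of all genes did at 8, 24 and 48 h. At 8 h 11 were higher and 3 lower (31% of all genes called, 15% higher and 16% lower). At 24 h the split was 14 and 9 (42.9%, 21.2% and 21.7%), and at 48 h it was 6 and 15 (40.5%, 20.4% and 20.1%). The largest rise was of DCK at 24 h, from 13.1, 18.2 and 13.6 CPM to 25.3, 23.1 and 24.3 (log2 0.69, SE 0.0897), and the largest fall of APRT at 48 h, from 446, 319.8 and 488 to 225, 259 and 263 (log2 -0.75, SE 0.102). These counts are fragile. Without parental 0 h replicate 2 they became 21, 22 and 27 called at 8, 24 and 48 h (13 higher and 8 lower, 13 and 9, 9 and 18), without replicate 1 12, 22 and 17, without replicate 3 12, 23 and 20, with only the compared groups in the fit 5, 7 and 8 at 8, 24 and 48 h, and only 5, 6 and 8 calls held in every setting. Upper-quartile scaling gave 10 higher and 5 lower at 8 h, and library totals gave 12 higher and 14 lower at 48 h. The parental changes also moved with base composition. Over the 34 members, Spearman's rho between the log2 change and transcript GC content came to -0.67, -0.77 and -0.72 at 8, 24 and 48 h (a description over genes of the same libraries), against -0.39, -0.44 and -0.44 over all genes. In MYC-ER it was 0.32, 0.26 and 0.23 over the members and 0.00, -0.03 and 0.03 over all genes. With each library's GC trend removed, 14 members were called in the parental line at 24 h, 7 in each direction, and PAICS, IMPDH1, GMPS, HPRT1, TK1 and CMPK1 changed sign.

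The interaction, or excess of the change in MYC-ER over that in parental cells, was called for 29 members at 8 h (25 positive, 4 negative; 55.2% of all genes called, 27.3% and 27.8%), for all 34 at 24 h (31 positive, 3 negative; 54.5%, 27.7% and 26.8%) and for 29 at 48 h (24 positive, 5 negative; 45%, 23.6% and 21.4%). At 8 h and 24 h 20 and 22 members had an interaction of at least 1 on the log2 scale, and none was at or below -1. Over all genes 12.9% were at least 1 and 14.9% at or below -1 at 8 h, 14.9% and 11.2% at 24 h, and 10.4% and 4.5% at 48 h, when the members gave 9 and 1. The 5 not called at 8 h were IMPDH2, CTPS2, DCK, CMPK1 and TYMS. The negative ones at 24 h were PRPS2 (-0.29), RRM2B (-0.80) and CMPK1 (-0.27), the last of which lost its call in 25 of 33 settings, among them leaving out any MYC-ER 0 h library (-0.28 to -0.25) or parental 0 h replicate 1 or 3 (both -0.21), and turned to 0.06 with the GC trend removed. Interactions share the 0 h libraries with the changes above, and 27, 31 and 25 of the calls at 8, 24 and 48 h held in every setting. Without parental 0 h replicate 2 the interaction was called for 30, 33 and 31 members, and at 0 h the lines still differed in 32, 29 of them lower in MYC-ER. The plot of changes by gene shows both lines.

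**Figure D4:**
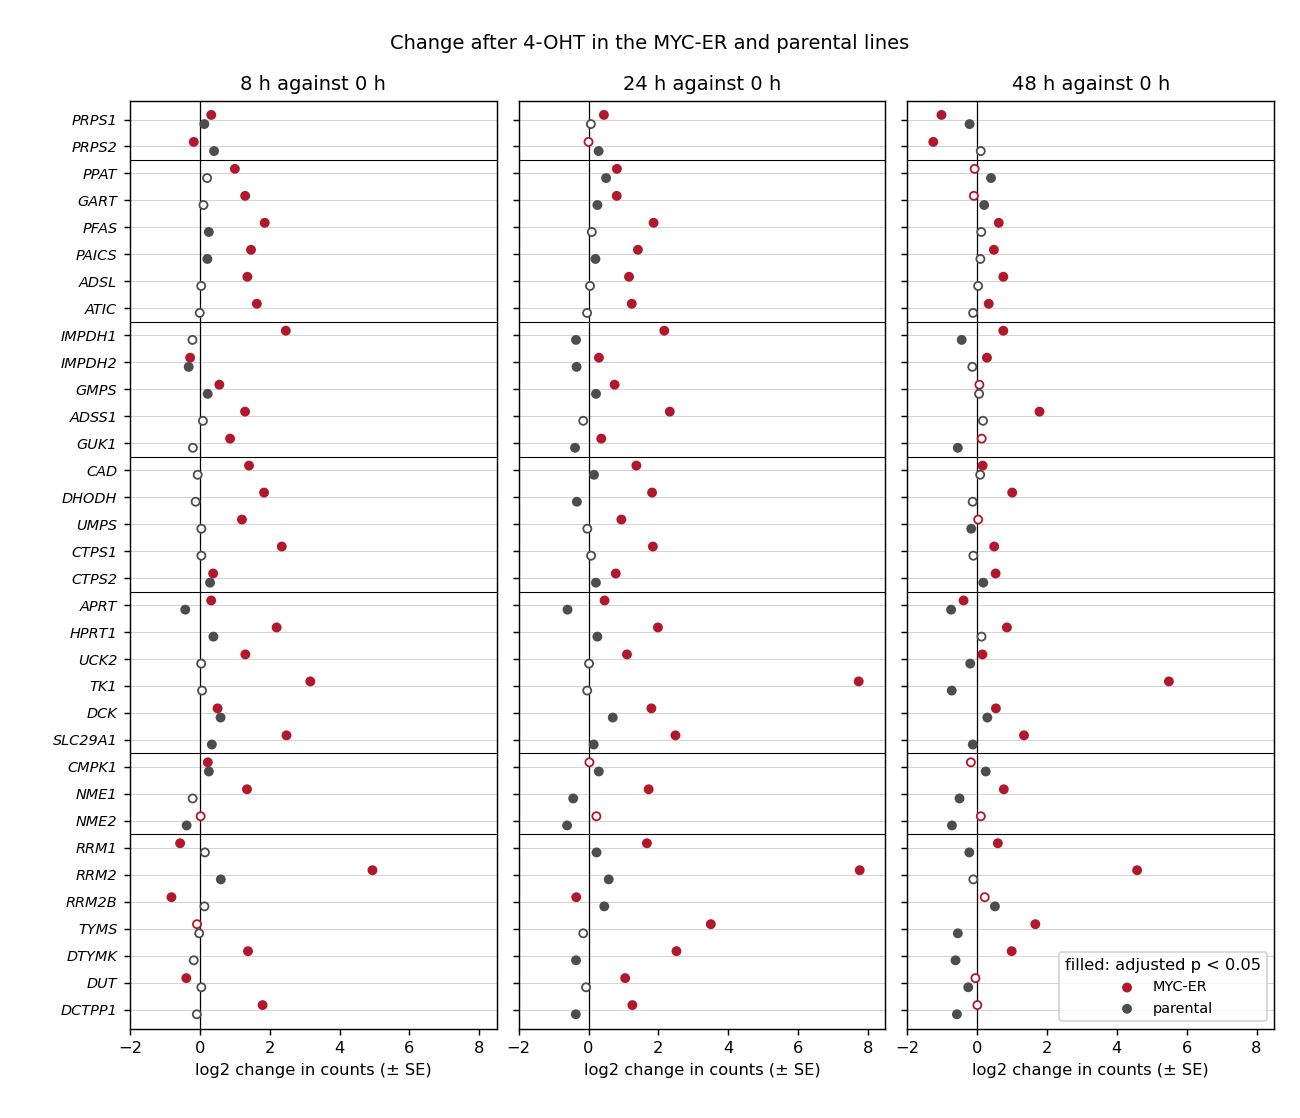
Log2 change from 0 h (x axis, bars are ± 1 SE from edgeR and mostly smaller than the points) for each member at 8, 24 and 48 h in MYC-ER (red) and parental (grey) cells; filled points passed an adjusted p of 0.05. The red points lie right of the grey ones for most members at 8 and 24 h, TK1 and RRM2 reach beyond 7 at 24 h, and all grey points stay within ±1.

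Paralogues within the set had unlike changes. At 8 h in MYC-ER cells the log2 change was 2.46 for IMPDH1 and -0.28 for IMPDH2, 2.35 for CTPS1 and 0.38 for CTPS2, 4.94 for RRM2 and -0.81 for RRM2B, 1.35 for NME1 and 0.02 for NME2, and 0.33 for PRPS1 and -0.17 for PRPS2. In each pair the first had the higher change, and in 3 of the 5 pairs the second was lower than at 0 h. The gene with the lower change was also the one less far below, or above, the parental line before 4-OHT: the 0 h difference from the parental line was 0.26 for IMPDH2 against -1.58 for IMPDH1, -0.24 against -1.87 for the CTP synthases, 0.55 against -7.35 for the reductase subunits, -0.84 against -1.99 for the NME pair and 0.84 against -0.33 for the PRPP synthetases. Both comparisons use the MYC-ER 0 h libraries, so the second is not independent of the first. No test was made between genes. The parental changes at 8 h were between -0.38 and 0.60 for these 10 genes.

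**Figure D5:**
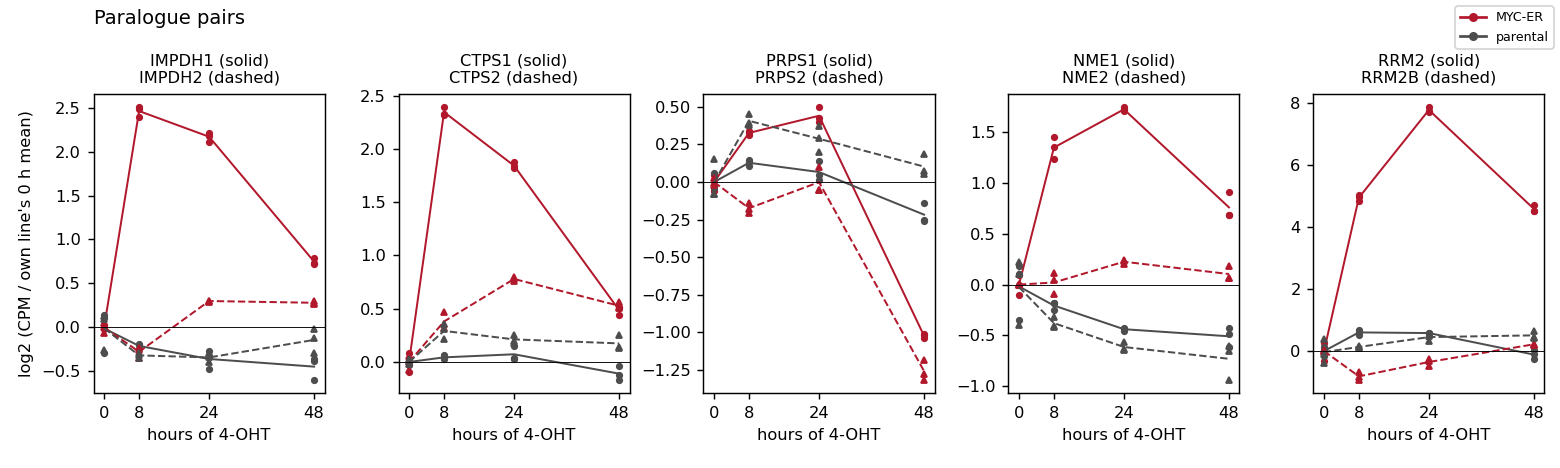
Log2 of CPM over the same line's 0 h mean against hours of 4-OHT for 5 pairs of paralogues; circles and solid lines are the first gene, triangles and dashed lines the second, red is MYC-ER and grey is parental, and each point is 1 library. In MYC-ER the first gene lies above the second at 8 and 24 h in all 5 pairs, and the y axes differ between panels.

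Genes around the set gave a mixed picture. Of 11 folate genes, which supply the 1-carbon units for purines and dTMP, 7 were higher and 4 lower in MYC-ER at 8 h (median 0.72). At 24 h, 7 were higher and 2 lower (median 1.08). Over all genes, 32.2% were higher and 35.4% lower at 8 h, and 30.4% and 31.2% at 24 h. MTHFD1L, the mitochondrial enzyme that releases formate, went from 14.02 ± 0.611 CPM (SD, n = 3) to 138 ± 5.89 at 8 h and 111 ± 4.67 at 24 h. SHMT1, the cytosolic serine enzyme, fell from 71.2 ± 0.485 CPM to 26.8 ± 0.622 at 8 h. Of 25 further salvage and kinase genes outside the set, 12 were higher and 8 lower at 8 h, with a median of 0.10 against 1.30 for the members. At 24 h the counts were 14 and 9, beside the same all-gene shares. Examples were SLC28A3, a concentrative nucleoside transporter (0.171 ± 0.0439 CPM at 0 h and 1.403 ± 0.181 at 8 h), NUDT1, which clears oxidised nucleotides (1.6002 ± 0.142 and, at 24 h, 14.7 ± 0.719), and GMPR, which runs GMP back to IMP and was lower at 8 h (8.55 ± 0.274 against 2.03 ± 0.179).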

How the data were processed

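RNA was sequenced as 150-base paired reads from strand-specific poly(A) libraries, per the labels' protocols. The authors deposited 1 table of whole-number read counts per gene for the 24 libraries, per the file headers, and the submitters' processing notes name Trimmomatic 0.39, STAR, StringTie 2.1.3b and GRCh38. The counting options, the use of strand and the annotation release are not given in the sources used here, and counts derived from StringTie may be estimates. Totals of 136860029 to 182438505 counts put the floor of 3 counts at 0.0219 CPM in the smallest library.

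From the deposited counts, genes were filtered with filterByExpr (22158 kept), scaled by TMM and fitted with edgeR 4.0.16 (quasi-likelihood F test, group means over all 24 libraries, Benjamini-Hochberg adjustment over all genes tested, threshold 0.05) in R 4.3.3. Standard errors are the log2 change divided by the square root of F, and the fit was tested on simulated data. Alternatives were other scalings, filters, DESeq2 1.42.0, only the compared groups, a replicate block, removal of each library's GC trend, and leaving out each library. Samples were grouped by the labels. Pseudogenes, overlaps and gene spans come from GENCODE 29, promoters from RefSeq (GRCh38.p14). Replicates of a group differed by more than sampling noise (chi-square per degree of freedom of 8.93 or more). The members and lists were chosen with earlier results of these data known. All members could be named. Outside them, each list could supply the 3 genes with the largest called change at 8 h and at 24 h in MYC-ER with at least 1 CPM in a group, and members were flagged singly where the lines were called in opposite directions.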

Additional observations from a re-analysis of the deposited data

Results flagged for a closer look

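The results below stand out because the change from 0 h differed between the MYC-ER and parental lines, by edgeR's test of the interaction. The interaction was called for 29, 34 and 29 members at 8, 24 and 48 h. The members given singly are those whose own change was called in opposite directions in the lines. At 8 h these were PRPS2, with an interaction of -0.58 (-0.17 in MYC-ER and 0.41 in parental cells), and APRT, with 0.74 (0.32 and -0.42). PRPS2 makes the activated ribose, and APRT uses it to recover adenine.

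At 24 h there were 9. IMPDH1 had an interaction of 2.53, IMPDH2 of 0.64, GUK1 of 0.75, DHODH of 2.15, APRT of 1.06, NME1 of 2.16, DTYMK of 2.88 and DCTPP1 of 1.62, each higher in MYC-ER and lower in parental cells. RRM2B, at -0.80, was lower in MYC-ER (-0.35) and higher in parental cells (0.45). At 48 h there were 8, all higher in MYC-ER and lower in parental cells: IMPDH1 at 1.19, UCK2 at 0.35, TK1 at 6.22, SLC29A1 at 1.47, NME1 at 1.27, RRM1 at 0.82, TYMS at 2.22 and DTYMK at 1.61. These opposite calls rest on parental changes, and few held in all 33 alternatives: 0 of the 2 at 8 h, 3 of the 9 at 24 h (DHODH, APRT and NME1) and 4 of the 8 at 48 h (TK1, NME1, TYMS and DTYMK). With only the compared groups in the fit there were 1, 4 and 6 at 8, 24 and 48 h, and without parental 0 h replicate 2 there were 9, 10 and 14. With the GC trend removed the parental change of IMPDH1 at 24 h was 0.02 and that of SLC29A1 at 48 h was 0.10.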

How the results depend on the processing

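Depth limited none of the members beyond TK1 and RRM2 in MYC-ER 0 h libraries, with 37 to 177 counts. Leaving out single libraries gave, at 8, 24 and 48 h, 31 to 33, 30 to 32 and 23 to 27 called members in MYC-ER, 12 to 21, 21 to 23 and 17 to 27 in the parental line, and 28 to 30, 32 to 34 and 27 to 31 for the interaction. With only the compared groups in the fit, 5, 7 and 8 members were called in the parental line at 8, 24 and 48 h (14, 23 and 21 in the full fit), whereas in MYC-ER at 48 h against 0 h that fit called 30 in place of 24. The cause was not tested. With the GC trend removed, 14 were called there at 24 h.

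Signs that reversed are given where the change was called in either fit. The GC correction reversed parental changes in PPAT at 8 h (-0.13), in PAICS (-0.015), IMPDH1 (0.022), GMPS (-0.053), HPRT1 (-0.030), TK1 (0.35) and CMPK1 (-0.079) at 24 h, and in PPAT (-0.10), PAICS (-0.11), GMPS (-0.20), DCK (-0.044), SLC29A1 (0.10) and CMPK1 (-0.13) at 48 h. It also reversed the interaction of CMPK1 at 8 h (0.19), 24 h (0.058) and 48 h (0.0050) and of PPAT at 48 h (0.037). Library totals as the scaling reversed the 24 h against 8 h change in PAICS (0.16), CAD (0.17), DHODH (0.19), UCK2 (0.0031) and CMPK1 (0.0027). No change from 0 h in MYC-ER reversed. Library totals moved the all-gene median of the 48 h change in MYC-ER from 0.03 to 0.19, and the upper quartile moved that at 8 h from -0.10 to -0.24.

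Same-numbered libraries did not deviate together (correlations of -0.08 to 0.09, 10 of 24 libraries closest to their own number), so the numbers were not taken as pairs. The replicate block gave 20 called members in the parental line at 48 h (6 higher, 14 lower) and 33 interactions at 24 h (31 and 2), and left the other 13 counts of called members as they were.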

Other observations

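Genes that break nucleotides down did not move in 1 direction. Of 18 such genes 17 were tested, and in MYC-ER cells 8 were higher and 7 lower at 8 h (median -0.09), and 8 higher and 8 lower at 24 h (median 0.08), beside 67.6% and 61.6% of all genes called. The largest changes were nonetheless rises. NT5E, the surface enzyme that releases adenosine from AMP, stood at 15.7 ± 0.343 CPM (SD, n = 3) at 0 h and 242 ± 2.45 at 8 h, a log2 change of 3.95 (SE 0.0893). XDH, which makes uric acid, went from 2.04 ± 0.343 to 24.6 ± 1.03 at 8 h and 18.5 ± 1.49 at 24 h. UPP1, which splits uridine, went from 5.95 ± 0.6302 to 57.8 ± 3.804 at 8 h, and PNP, which splits inosine and guanosine, from 28.3 ± 1.67 to 136 ± 2.29 at 24 h. XDH was still below the parental line at 8 h, at 3306 to 3769 counts against 6905 to 7354. Of the 17 tested, 9 were lower and 6 higher in MYC-ER than in parental cells at 0 h (32.7% and 31.6% of all genes). In the parental line the same list had 7 higher and 1 lower at 8 h (31% of all genes called), and 7 and 6 at 24 h (42.9%).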
